A study of Mus musculus with 6 samples.

Results

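Purine receptors bind ATP, ADP, UDP and related nucleotides outside the cell, and ectonucleotidases are the membrane enzymes that break these nucleotides down. The 10 genes described here are 4 ATP-gated ion channels (P2rx1, P2rx3, P2rx4 and P2rx7), 4 G protein-coupled nucleotide receptors (P2ry1, P2ry2, P2ry6 and P2ry14) and the ectonucleotidases Entpd1 and Entpd2. They were taken by name, with every probe set whose only gene symbol is one of them, which gave 20 probe sets for the 10 genes, of 18193 genes measured by 34945 probe sets with 1 symbol. Cells were sorted from the colon of Mapttm1(EGFP)Klt/J mice, which carry EGFP at the Mapt locus, the gene of the neuronal microtubule protein tau. Of the 6 arrays, 3 libraries came from sorted cells labelled as EGFP-positive colonic neurons and 3 from cells labelled as EGFP-negative myenteric cells. All groups share 1 treatment: fluorescently labelled cholera toxin B was injected into the celiac ganglion some days before the mice were killed. Each library pooled several mice, and neither age nor zygosity is given in the sources used here.

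In the gut wall, enteric neurons release ATP and related purines onto muscle and interstitial cells, and in mice the P2Y1 receptor on PDGFRA-positive fibroblast-like cells carries the fast inhibitory signal to smooth muscle. P2X channels open within milliseconds of ATP binding, whereas P2Y receptors act through G proteins. Entpd1 (CD39) degrades ATP and ADP to AMP, and Entpd2 mainly converts ATP to ADP, the ligand of P2Y1; in the mouse plexus Entpd2 is known as an enzyme of enteric glia.

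Values below are the deposited log2 expression values, with replicate 1 first, then replicates 2 and 3. TrpnX, a bacterial control transcript, read 1.00 to 1.48 and served as background; a probe set was taken as at background when no library exceeded its own highest TrpnX value by more than 1 log2 unit. Levels of different probe sets cannot be set against each other. The number of probe sets above 6 on the log2 scale ran from 7135 to 7442 in the EGFP-positive libraries and from 6182 to 7621 in the EGFP-negative ones, with the fewest in EGFP-negative replicate 1. Under the EGFP-positive label Mapt read 1.43, 1.32 and 5.55, against 1.44, 1.64 and 1.38 under the EGFP-negative label. It was thus near background in EGFP-positive replicates 1 and 2. As EGFP sits at this locus and zygosity is not given, its effect on the Mapt reading was not tested. The 12 neuronal markers averaged 3.09, 2.98 and 6.53 against 3.19, 3.38 and 3.77. Their means in EGFP-positive replicates 1 and 2 were below those of every EGFP-negative library, against the label. Markers of intestinal epithelium, with list means of 8.15, 7.27 and 4.88 against 7.08, 7.18 and 5.81, and of mesothelium, with 9.68, 9.18 and 7.41 against 9.35, 8.77 and 7.68, had means above the TrpnX range in every library, and the part of these cells in the values below was not tested. By Mapt, the neuronal markers and the number of bright probe sets, EGFP-positive replicate 3 and EGFP-negative replicate 1 stood apart, and the results that rest on either are also given without it. Without EGFP-positive replicate 3 the neuronal list turned, with a mean of 3.03 under the EGFP-positive label against 3.45 and 10 of 12 markers lower; without EGFP-negative replicate 1 it was 4.20 against 3.58 with 11 of 12 higher. Group names below are those of the labels.

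Of the 5 genes that spanned at least 2 log2 units over the 6 libraries (P2rx7, P2ry1, P2ry6, P2ry14 and Entpd2), P2rx7 lay closest to Entpd2 and P2ry1 to P2ry14, and the 250 bases before their first annotated start sites are shown for a side by side view. Promoter sequences were matched in RefSeq (GRCm38.p6) for 8 of the 10 genes, P2rx3 and P2ry6 being the others. The windows are chr5:122643677-122643926 (plus strand), chr2:25395624-25395873 (plus strand), chr3:61002535-61002784 (plus strand) and chr3:59153493-59153742 (minus strand), each written 5′ to 3′. Capitals mark matches, on either strand, to the letters of 7 motifs.
P2rx7: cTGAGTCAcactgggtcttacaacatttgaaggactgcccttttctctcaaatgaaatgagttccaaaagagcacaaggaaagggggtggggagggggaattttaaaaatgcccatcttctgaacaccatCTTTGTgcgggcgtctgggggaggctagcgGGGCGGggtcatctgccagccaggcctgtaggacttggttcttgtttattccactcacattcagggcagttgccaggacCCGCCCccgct
Entpd2: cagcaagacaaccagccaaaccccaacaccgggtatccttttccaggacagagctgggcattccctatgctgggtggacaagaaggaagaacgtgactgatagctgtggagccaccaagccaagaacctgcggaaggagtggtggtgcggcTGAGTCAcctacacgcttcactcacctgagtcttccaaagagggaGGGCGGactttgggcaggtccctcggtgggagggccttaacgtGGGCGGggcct
P2ry1: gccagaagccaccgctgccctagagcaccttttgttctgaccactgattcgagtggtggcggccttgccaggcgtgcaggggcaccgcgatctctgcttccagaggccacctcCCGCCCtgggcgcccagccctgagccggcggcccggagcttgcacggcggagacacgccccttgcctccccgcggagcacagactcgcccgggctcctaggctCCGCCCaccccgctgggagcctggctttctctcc
P2ry14: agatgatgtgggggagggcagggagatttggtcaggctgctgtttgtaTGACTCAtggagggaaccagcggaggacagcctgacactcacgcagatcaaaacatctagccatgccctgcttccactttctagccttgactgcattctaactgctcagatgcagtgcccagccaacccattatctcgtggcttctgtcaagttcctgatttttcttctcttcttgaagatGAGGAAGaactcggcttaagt

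The motifs searched were the AP-1 site (TGANTCA), the PU.1 core (GAGGAAG), the SOX core (ACAAAG), the GC box (GGGCGG), then the TATA box (TATAAA), then the CCAAT box (CCAAT), and the cyclic AMP element (TGACGTCA), which 6.75%, 10.6%, 16.5%, 32.7%, 12.4%, 33.8% and 1.55% of 32851 annotated 250-base windows held. The P2rx7 and Entpd2 windows each held 1 AP-1 match and 2 GC box matches, and that of P2rx7 also 1 SOX match. The P2ry1 window held 2 GC box matches, and that of P2ry14 held 1 AP-1 and 1 PU.1 match, so these 2 windows had no motif of the search in common. Their GC contents were 70.8% and 50.0%, against 53.6% for P2rx7 and 59.2% for Entpd2. No marked matches overlapped, and a match describes letters only. P2ry14 had 4 annotated starts and P2rx7 had 2, and which of them was used in these cells cannot be read from the arrays. In the RefSeq table P2rx7 and P2rx4 are neighbours on chromosome 5, and P2ry6 and P2ry2 are neighbours on chromosome 7.

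The comparison of the 2 labels asked whether purine receptor and ectonucleotidase transcripts differed between EGFP-positive and EGFP-negative cells. None of the 10 genes passed (limma over all 18193 genes, Benjamini-Hochberg adjusted p = 1.00 for each), as 0% of all genes did. At an unadjusted p under 0.05 there were 0 of the 10, against 4.91% of all genes (893). Same-numbered libraries deviated together. With the replicate number as a block, 2 of the 10 had an unadjusted p under 0.05 in limma, against 7.39% of all genes. These were P2rx7 (unadjusted p = 0.0295, adjusted p = 0.661) and P2ry14 (unadjusted p = 0.0239, adjusted p = 0.661). Their 95% confidence intervals with this block were 0.2 to 2.19 (SE 0.35) for P2rx7 and -2.48 to -0.31 (SE 0.39) for P2ry14. The intervals of the other genes included 0, with -4.23 to 0.34 (SE 0.81) for P2ry1 and -3.78 to 0.55 (SE 0.77) for P2ry6. SEs and intervals given below are from fits without the block. With array weights 3 of the 10 had an unadjusted p under 0.05, against 7.91% of all genes: P2ry1, P2ry6 and P2ry14 (limma adjusted p = 0.259, 0.494 and 0.59). The groups overlapped in all 10 genes, where 3.07% of all genes were higher and 6.04% lower in the EGFP-positive group with no overlap. The log2 difference, EGFP-positive minus EGFP-negative, was above 0 in 6 and below 0 in 4 of the 10, with a median of 0.01 against -0.02 over all genes. In sorted pools, fewer cells of a type and less RNA per cell cannot be told apart.

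**Figure D1:**
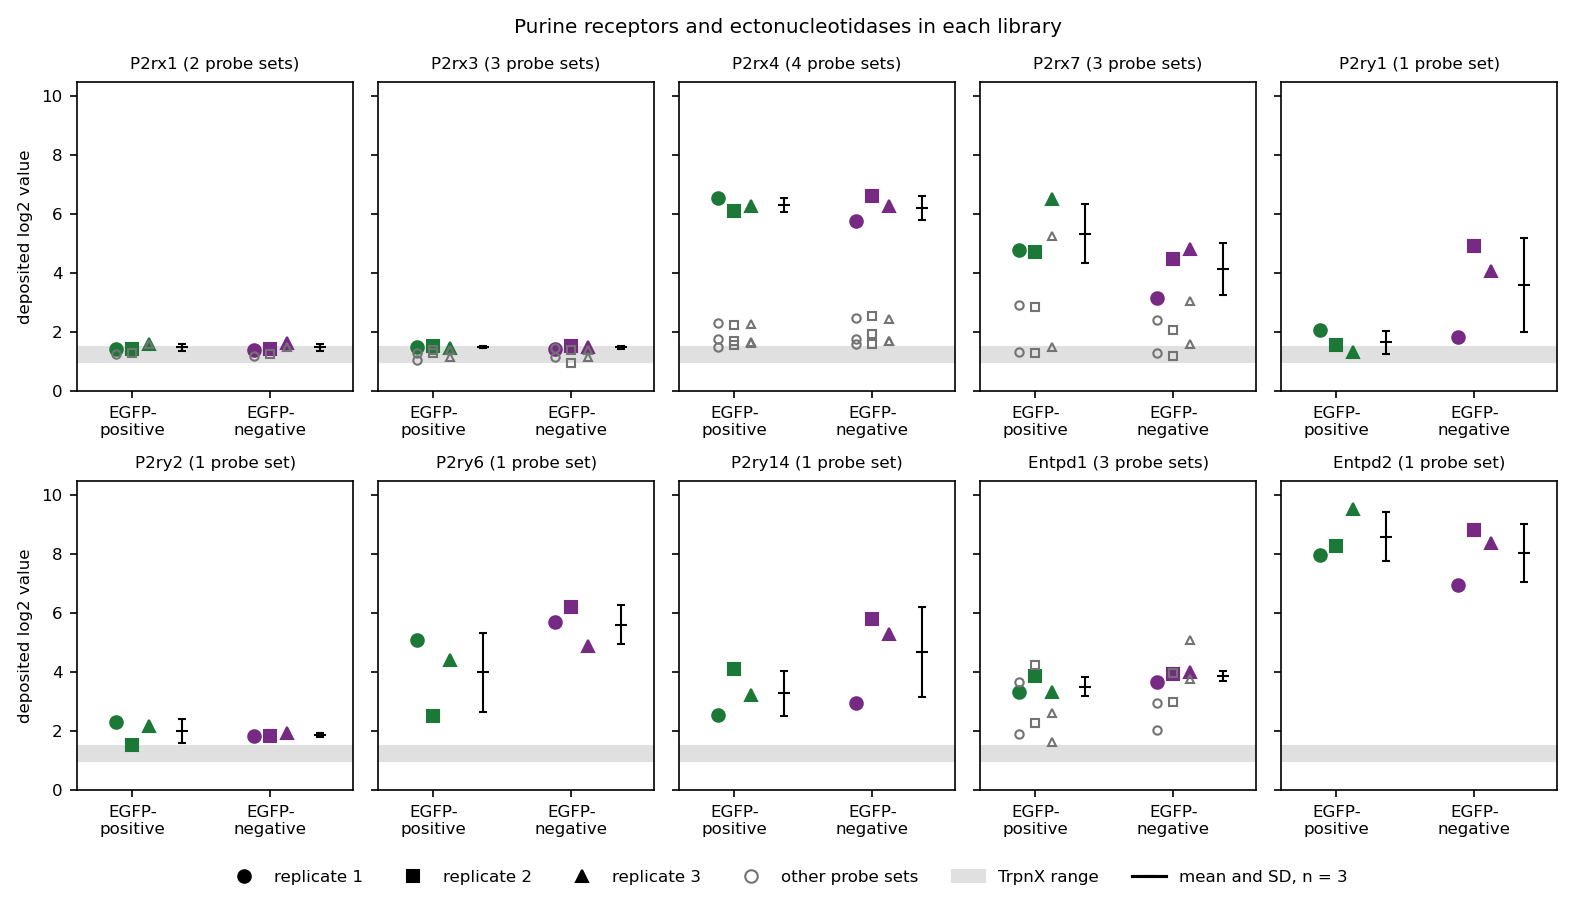
Deposited log2 values of the 10 genes, with 1 panel a gene, EGFP-positive libraries left of EGFP-negative ones; filled symbols are the probe set with the highest mean, open grey symbols the other probe sets, bars the mean and SD of 3 libraries and the grey band the TrpnX range of 1.00 to 1.48. P2rx1 and P2rx3 lie at the band in every library, P2rx7 and Entpd2 are highest in EGFP-positive replicate 3, and P2ry1 and P2ry14 are highest in EGFP-negative replicates 2 and 3.

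Of the ATP-gated channels, P2rx1 and P2rx3 were at background in all 6 libraries. P2rx1, the channel of smooth muscle and platelets, read 1.42, 1.43 and 1.61 in the EGFP-positive libraries and 1.39, 1.42 and 1.63 in the EGFP-negative ones with its brighter probe set 1429794_a_at. P2rx3, the channel of sensory neurons, read 1.48, 1.54 and 1.46 against 1.44, 1.52 and 1.48 with probe set 1431321_at. The second P2rx1 probe set and the other P2rx3 probe sets were at background too, so no difference can be read for either gene. The smooth muscle markers, the textbook source of P2rx1, were far above background, with list means of 9.59, 9.08 and 11.09 against 10.04, 9.41 and 11.30.

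P2rx4, a widely expressed channel that is prominent in macrophages, was clearly above background and nearly level between the groups. Probe set 1425525_a_at read 6.56, 6.10 and 6.26 in the EGFP-positive libraries and 5.76, 6.60 and 6.26 in the EGFP-negative ones. The extremes both lay in the EGFP-negative group, and the log2 difference was 0.10 (SE 0.26), with a 95% confidence interval of -0.54 to 0.74. Same-numbered pairs differed by 0.80, -0.50 and 0.00, EGFP-positive minus EGFP-negative. The macrophage list mean was 6.28, 3.31 and 2.27 in the EGFP-positive libraries against 8.05, 8.18 and 6.49 in the EGFP-negative ones, and the part of macrophages in the P2rx4 values was not tested. Of the other P2rx4 probe sets, 1452527_a_at was dim and read 2.30, 2.24 and 2.26 against 2.47, 2.55 and 2.45. It was the 1 of the 20 probe sets whose groups did not overlap, where 4.96% of all probe sets were lower in this way and 4.9% higher. Its log2 difference of -0.22 (SE 0.09) did not pass over all probe sets (limma adjusted p = 0.899), and 1441772_at and 1446429_at were at background.

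P2rx7, a channel that needs high ATP and is known from inflammasome activation in macrophages and from glia, had the highest difference of the 10 genes. Probe set 1439787_at read 4.79, 4.73 and 6.50 in the EGFP-positive libraries and 3.15, 4.47 and 4.82 in the EGFP-negative ones. The highest value lay in EGFP-positive replicate 3 and the lowest in EGFP-negative replicate 1, and the other 4 libraries stood close together with the groups interleaved. The mean was 5.34 ± 1.00 (SD, n = 3) against 4.15 ± 0.88 (SD, n = 3), a log2 difference of 1.19 (SE 0.66) or 2.29 times the level. It did not pass (limma adjusted p = 1.00). Without EGFP-positive replicate 3 the log2 difference was 0.61, and without EGFP-negative replicate 1 it was 0.70.

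A second P2rx7 probe set gave nearly the same picture at a lower reading. Probe set 1419853_a_at read 2.92, 2.84 and 5.25 in the EGFP-positive libraries and 2.40, 2.07 and 3.04 in the EGFP-negative ones, a log2 difference of 1.17 (SE 0.71). In both probe sets the EGFP-positive library was the higher of each same-numbered pair, by 1.64, 0.26 and 1.68 with 1439787_at and by 0.52, 0.77 and 2.21 with 1419853_a_at. The share of all genes with every pair in 1 direction was not computed, here and below. The third probe set, 1422218_at, stayed at background, between 1.20 and 1.61.

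Profiles were compared by the root mean square of the difference between gene-centred log2 values over the 6 libraries, a distance that is 0 for identical profiles. It also grows where profiles rise and fall together over unlike ranges. A list with large changes can therefore lie farther away than a profile of no change. P2rx7 lay 0.43 from Entpd2, 0.47 from the list mean of enteric glia, 0.73 from the neuronal list and 3.07 from the macrophage list, beside 0.98 from a profile of no change. Without EGFP-positive replicate 3 it lay 0.39 from Entpd2, 0.48 from glia, 0.48 from mast cells, 0.51 from the list of PDGFRA-positive fibroblast-like cells and 0.63 from no change, so the glial list was then hardly nearer than others. Of the 6 mast cell markers 5 were at background, so distances from that list, here and below, say little about mast cells. Without EGFP-negative replicate 1 P2rx7 lay 0.46 from Entpd2, 0.46 from glia and 0.73 from no change. Among 2273 genes that spanned at least 2 log2 units, the nearest were Zswim6, a zinc finger protein gene, at 0.14 and Gfra2, a co-receptor of the neurturin receptor, at 0.16. The glial markers averaged 5.93, 5.34 and 7.65 in the EGFP-positive libraries and 4.37, 5.11 and 4.71 in the EGFP-negative ones. Of 8 listed, 6 were measured, all 6 had a higher mean in the EGFP-positive group, also without either library that stood apart, and none was at background. Their summed log2 values ran from 32.0 to 45.9 against 26.2 to 30.6. Of the 12 neuronal markers, 12 had a higher mean in the EGFP-positive group with all libraries and 2 without EGFP-positive replicate 3, with sums of 35.8 to 78.4 against 38.3 to 45.3 and Elavl3 at background. The part of either cell type in the P2rx7 values was not tested.

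**Figure D2:**
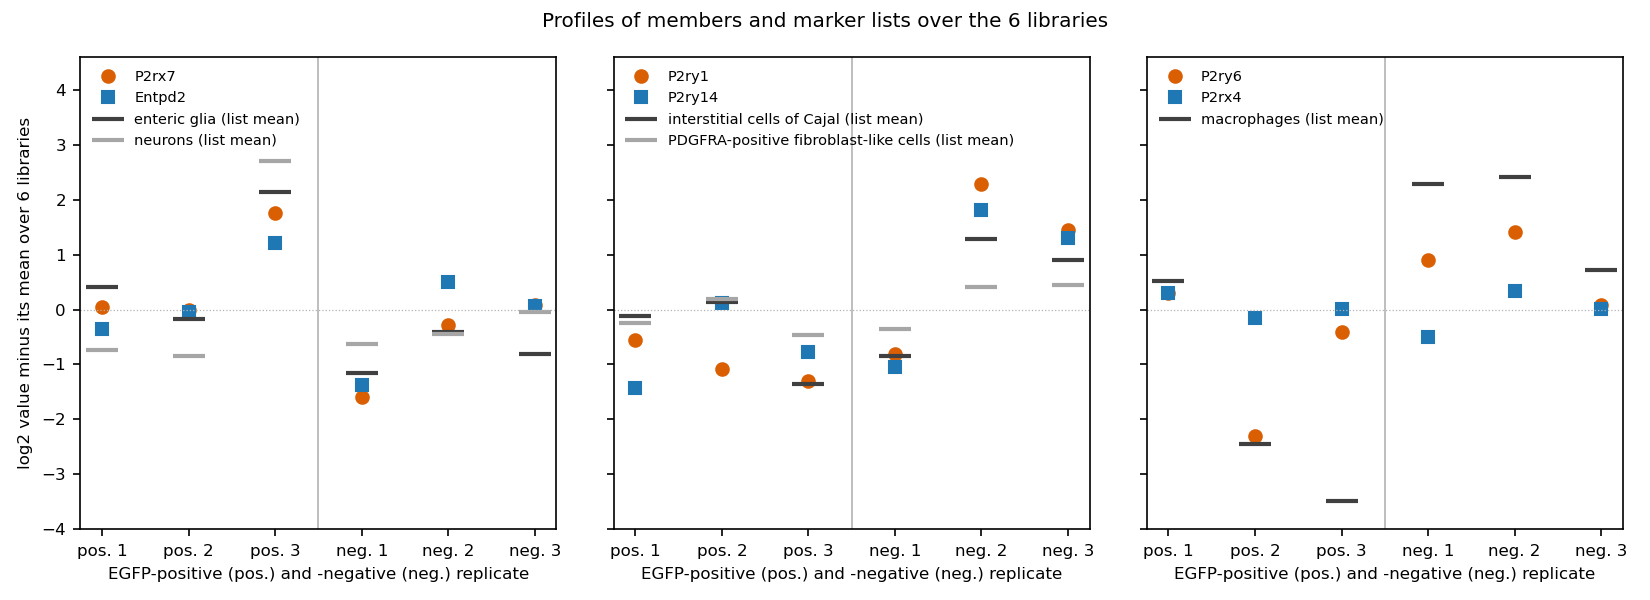
Log2 values minus their mean over the 6 libraries for P2rx7 and Entpd2 (left), P2ry1 and P2ry14 (middle) and P2ry6 and P2rx4 (right), with EGFP-positive libraries left of EGFP-negative ones and horizontal dashes for the mean of marker lists. P2rx7, Entpd2, the glial list and the neuronal list peak in EGFP-positive replicate 3, P2ry1 and P2ry14 stand highest in EGFP-negative replicates 2 and 3, and P2ry6 is lowest in EGFP-positive replicate 2.

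P2ry1, the ADP receptor of inhibitory purinergic transmission, was above background in EGFP-negative libraries only, and had the lowest fitted difference of the 10 genes. It read 2.08, 1.55 and 1.33 in the EGFP-positive libraries and 1.82, 4.91 and 4.07 in the EGFP-negative ones (1421456_at, its only probe set). It was within 1 log2 unit of TrpnX in 4 libraries and farther above it in EGFP-negative replicates 2 and 3. EGFP-negative replicate 1 lay among the EGFP-positive libraries, so the groups overlapped. Same-numbered pairs differed by 0.26, -3.36 and -2.74, EGFP-positive minus EGFP-negative, so not all in 1 direction. As no EGFP-positive library was above background, only a bound on the difference of the measured means can be given. Against the highest TrpnX value plus 1 in each of these libraries, the EGFP-positive mean was at least 2.43-fold lower. This bound leaves out the spread between libraries, and EGFP-negative replicate 1 was itself within 1 log2 unit of TrpnX. The fitted log2 difference was -1.95 (SE 0.81), with a 95% confidence interval of -3.96 to 0.07. It did not pass (limma unadjusted p = 0.0556, adjusted p = 1.00). Without EGFP-negative replicate 1 it was -2.84, with limma adjusted p = 0.213 and groups that did not overlap, as in 21.9% of all genes then. Without EGFP-positive replicate 3 it was -1.78, and without EGFP-negative replicate 2 it was -1.29.

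P2ry14, the receptor of UDP-glucose, also had its highest readings in EGFP-negative libraries. It read 2.55, 4.09 and 3.21 in the EGFP-positive libraries and 2.94, 5.80 and 5.28 in the EGFP-negative ones (1424733_at). EGFP-negative replicates 2 and 3 were again the highest of all, while EGFP-negative replicate 1 was the second lowest. The log2 difference was -1.39 (SE 0.84), or 0.38 times the level, and did not pass (limma adjusted p = 1.00). The EGFP-positive library was the lower of each same-numbered pair, with log2 differences of -0.39, -1.72 and -2.07. Without EGFP-negative replicate 1 the log2 difference was -2.26 (limma adjusted p = 0.457), and without EGFP-negative replicate 2 it was -0.83. Leaving out EGFP-positive replicate 3 gave -1.36.

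The 2 receptors lay 0.68 from each other in root mean square distance. From the marker list of the gut's pacemakers, the interstitial cells of Cajal, P2ry1 lay 0.70 and P2ry14 lay 0.66, and from the list of PDGFRA-positive fibroblast-like cells 1.09 and 0.89. From the lymphocyte list P2ry1 lay 0.81 and P2ry14 1.26, and from the endothelial list 1.17 and 0.97. From the mast cell list they lay 1.08 and 0.97, and from a profile of no change 1.36 and 1.21. Without EGFP-positive replicate 3 or EGFP-negative replicate 1 in turn, P2ry1 lay 0.77 and 0.77 from the Cajal list and 0.84 and 0.77 from the lymphocyte list. P2ry14 then lay 0.66 and 0.71 from the Cajal list and 1.26 and 1.26 from the lymphocyte list. In these settings the 2 receptors lay 0.69 and 0.73 from each other. The genes nearest to P2ry1 were the chemokine gene Ccl17 and the granzyme gene Gzma, both at 0.22, and those nearest to P2ry14 were Scara5, a ferritin receptor, at 0.31 and the growth factor gene Fgf7 at 0.35. The Cajal list, with 3 of 4 markers measured, 3 lower in mean with all libraries and 2 without either library that stood apart, and none at background, averaged 5.86, 6.10 and 4.61 in the EGFP-positive libraries against 5.12, 7.25 and 6.88, with sums of 13.8 to 18.3 against 15.4 to 21.7. The fibroblast-like list averaged 8.86, 9.29 and 8.63 against 8.75, 9.50 and 9.55, with 4 of 6 lower, sums of 51.8 to 55.8 against 52.5 to 57.3 and Kcnn3, the potassium channel of these cells, at background. Lymphocyte markers were lower in mean in 7 of 7, with sums of 8.1 to 16.0 against 22.9 to 41.4 and none at background. The part of these cell types in the P2ry1 and P2ry14 values was not tested.

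P2ry6, a UDP receptor that in rodent microglia drives phagocytosis, had a lower mean in the EGFP-positive group with 1 library well below the rest. It read 5.10, 2.50 and 4.40 in the EGFP-positive libraries and 5.71, 6.22 and 4.89 in the EGFP-negative ones (1425214_at). Only EGFP-positive replicate 1 and EGFP-negative replicate 3 crossed, by 5.10 to 4.89. The mean was 4.00 ± 1.34 (SD, n = 3) against 5.61 ± 0.67 (SD, n = 3), a log2 difference of -1.61 (SE 0.74) or 0.33 times the level, which did not pass (limma unadjusted p = 0.0756, adjusted p = 1.00). The EGFP-positive library was the lower of each same-numbered pair, with log2 differences of -0.62, -3.72 and -0.50. Leaving out EGFP-positive replicate 2 gave -0.86 and leaving out EGFP-positive replicate 1 gave -2.16. Without the libraries that stood apart, EGFP-positive replicate 3 and EGFP-negative replicate 1 in turn, it was -1.81 and -1.56.

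The macrophage markers were lower in mean in 12 of 12, with sums of 27.2 to 75.4 against 77.9 to 98.2 and none at background. With all libraries the distance between P2ry6 and the macrophage list was 1.47, beside 1.18 from a profile of no change. The list mean ran from 2.27 to 8.18 and P2ry6 from 2.50 to 6.22, and the distance counts this difference in range. Likeness in shape alone was not tested. The list mean was lowest in EGFP-positive replicate 3, at 2.27, where P2ry6 read 4.40. Without that library the distance was 0.54, beside 1.28 from no change, and the macrophage list was then the nearest of the marker lists. Without EGFP-negative replicate 1 it was 1.46, beside 1.22 from no change, and other lists lay nearer, such as the Cajal list at 1.19. The nearest genes, C5ar1 (a complement receptor) and Msr1 (a scavenger receptor), lay at 0.56 and 0.57, farther than the nearest genes of the other 4 profiles compared. The part of macrophages in the P2ry6 values was not tested. P2ry2, a receptor of ATP and UTP, was at background, with 2.31, 1.54 and 2.17 in the EGFP-positive libraries and 1.82, 1.82 and 1.94 in the EGFP-negative ones (1450318_a_at).

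**Figure D3:**
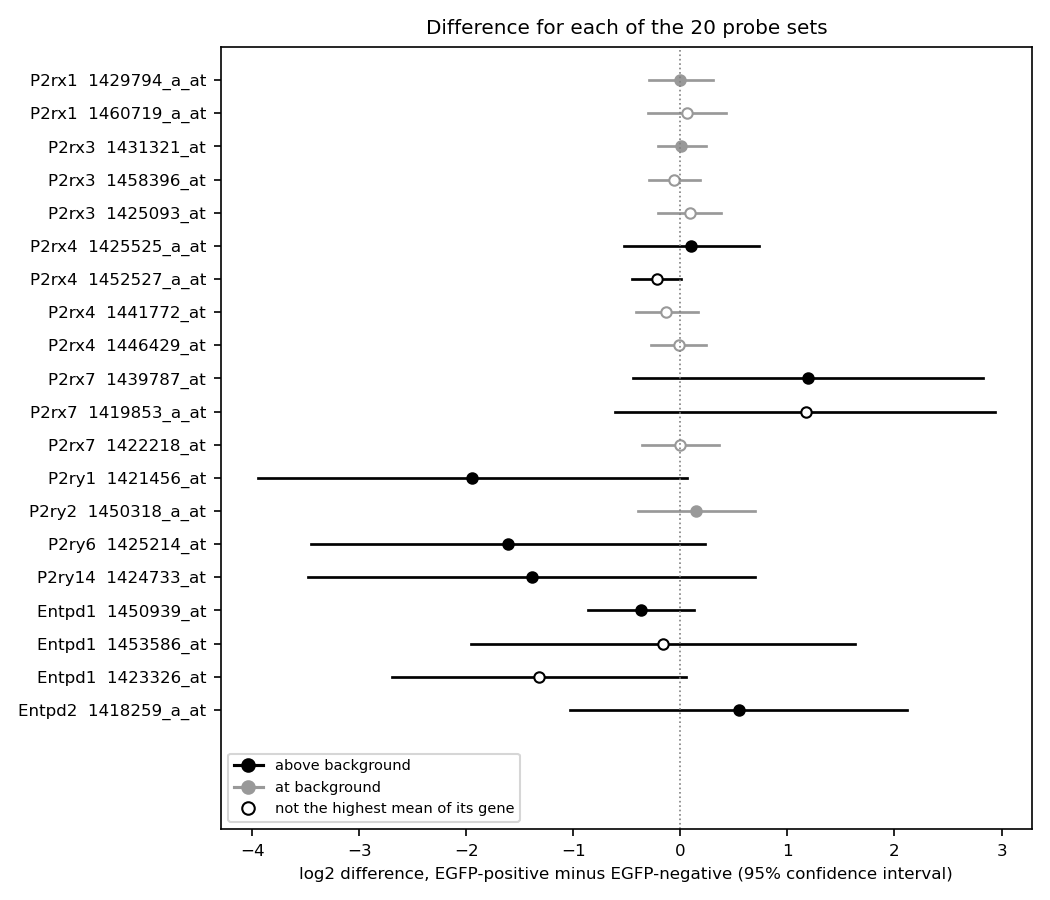
Log2 differences, EGFP-positive minus EGFP-negative, of the 20 probe sets with 95% confidence intervals from the limma fit over all probe sets; grey marks probe sets at background and open circles those that are not the brightest of their gene. In this fit, which has no replicate block, every interval includes 0, and those of P2ry1, P2ry6, P2ry14 and P2rx7 are among the widest.

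Entpd1 and Entpd2, the enzymes that end the ATP signal, were both above background. Entpd2 lay between percentiles 90.8 and 98.4 of all probe sets of a library. It read 7.96, 8.28 and 9.53 in the EGFP-positive libraries and 6.94, 8.82 and 8.38 in the EGFP-negative ones (1418259_a_at). As with P2rx7, the highest value lay in EGFP-positive replicate 3 and the lowest in EGFP-negative replicate 1. Unlike for P2rx7, the same-numbered pairs did not all go in 1 direction, with log2 differences of 1.03, -0.54 and 1.15. The log2 difference was 0.55 (SE 0.63), with a 95% confidence interval of -1.04 to 2.13, and did not pass (limma adjusted p = 1.00). It was 0.08 without EGFP-positive replicate 3 and -0.01 without EGFP-negative replicate 1. The Entpd2 profile lay 0.72 from the glial list, 0.82 from mast cells, 0.83 from the list of PDGFRA-positive fibroblast-like cells and 0.87 from the neuronal list. A profile of no change lay at 0.79 and P2rx1, at background throughout, at 0.74, so no list stood out as near. Without EGFP-positive replicate 3 the nearest list was that of the interstitial cells of Cajal, at 0.27, with glia at 0.64 and no change at 0.63. Without EGFP-negative replicate 1 a profile of no change, at 0.54, was nearer than the glial list, at 0.78. The nearest genes were Plekha5, a pleckstrin homology domain gene, at 0.10 and the adhesion molecule gene Vcam1 at 0.12.

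Entpd1, known from endothelium, macrophages and lymphocytes, had 3 probe sets that did not give 1 picture. The brightest by mean, 1450939_at, read 3.33, 3.88 and 3.31 in the EGFP-positive libraries and 3.68, 3.92 and 4.00 in the EGFP-negative ones, a log2 difference of -0.37 (SE 0.20). That difference was -0.27 without EGFP-positive replicate 3 and -0.46 without EGFP-negative replicate 1. Its same-numbered pairs differed by -0.35, -0.05 and -0.70. Probe set 1423326_at read 1.90, 2.26 and 1.64 against 2.02, 3.98 and 3.75, a log2 difference of -1.32 (SE 0.55) with the higher values in EGFP-negative replicates 2 and 3, as for P2ry1. Its EGFP-positive libraries were all within 1 log2 unit of TrpnX, as was EGFP-negative replicate 1. The measured mean was thus at least 1.91-fold lower in the EGFP-positive group, a bound that leaves out the spread between libraries. Probe set 1453586_at read 3.68, 4.23 and 2.62 against 2.95, 2.98 and 5.08, a log2 difference of -0.16 (SE 0.72) with the highest and the second highest value in different groups. All 3 differences were below 0 and none passed over all probe sets (limma adjusted p = 0.976, 0.899 and 0.999). Endothelial markers were lower in mean in 7 of 7 (5 of 7 without EGFP-positive replicate 3), with sums of 37.7 to 50.9 against 47.1 to 50.1 and none at background. The log2 difference of the list mean was -0.62 for endothelium, -3.62 for macrophages and -3.2 for lymphocytes. The part of these cell types in the Entpd1 values was not tested.

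**Figure D4:**
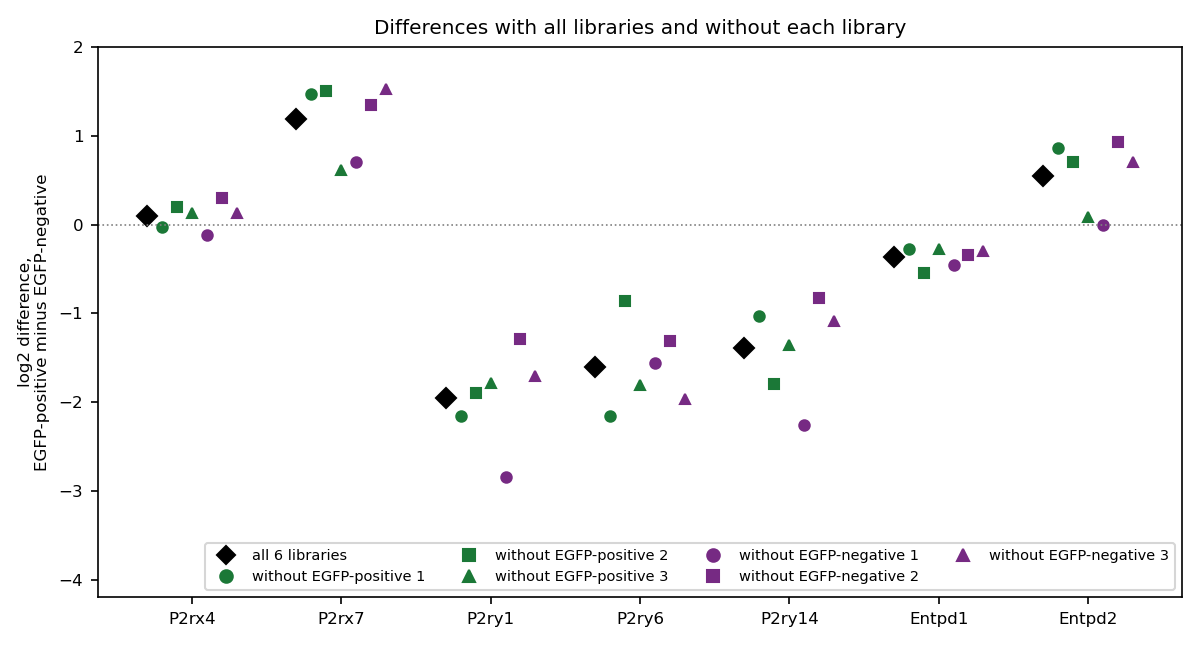
Log2 differences, EGFP-positive minus EGFP-negative, of the 7 genes with a probe set above background, from all 6 libraries (diamonds) and without each library in turn (green without an EGFP-positive, purple without an EGFP-negative library). P2ry1, P2ry6, P2ry14 and Entpd1 stay below 0 and P2rx7 above 0, while P2rx4 and Entpd2 cross 0.

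Of 32 other genes of purinergic signalling, 26 were measured with a single symbol. Of these, 0 passed in either direction (limma, Benjamini-Hochberg over all genes), with 2 at an unadjusted p under 0.05, against 4.91% of all genes. Their median log2 difference was -0.02, the same as over all genes. The groups did not overlap in 2 genes, both lower in the EGFP-positive group, and in 0 genes in the other direction. Over all genes 6.04% were lower and 3.07% higher in this way. Of the 21 listed genes above background, 1 was lower without overlap. P2ry10, which despite its name is a receptor of lysophospholipids, read 1.96, 1.25 and 1.23 in the EGFP-positive libraries and 2.06, 3.38 and 5.43 in the EGFP-negative ones, and its log2 difference of -2.14 (SE 0.86) was the lowest of the list. It was -2.02 without EGFP-positive replicate 3 and -2.92 without EGFP-negative replicate 1. P2ry13, an ADP receptor, was at background in all 6 libraries, at 1.27, 1.19 and 1.09 against 1.55, 1.70 and 1.33.

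The highest difference of that list was that of Entpd3, an ectonucleotidase of neurons, at 1.14 (SE 1.06). It read 1.94, 1.47 and 5.44 in the EGFP-positive libraries and 1.91, 1.75 and 1.76 in the EGFP-negative ones, so it stood above the rest in EGFP-positive replicate 3, the library in which Mapt was high. Without that library the log2 difference was -0.10, and without EGFP-negative replicate 1 it was 1.19. P2rx2, the channel subunit that pairs with P2rx3 in neurons and named here after its values were seen, read 2.68, 2.30 and 5.13 against 2.44, 2.40 and 2.52. Its log2 difference was 0.92 with all libraries and 0.04 without EGFP-positive replicate 3. P2rx3 itself read 1.46 in that library. Of the adenosine side, Nt5e (CD73), which makes adenosine from AMP, read 6.35, 6.31 and 6.81 against 6.52, 6.16 and 7.23, and adenosine kinase, Adk, read 9.30, 9.65 and 9.49 against 9.48, 9.54 and 9.34, both also named after their values were seen. Their log2 differences were -0.15 (SE 0.31) and 0.03 (SE 0.14).

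**Figure D5:**
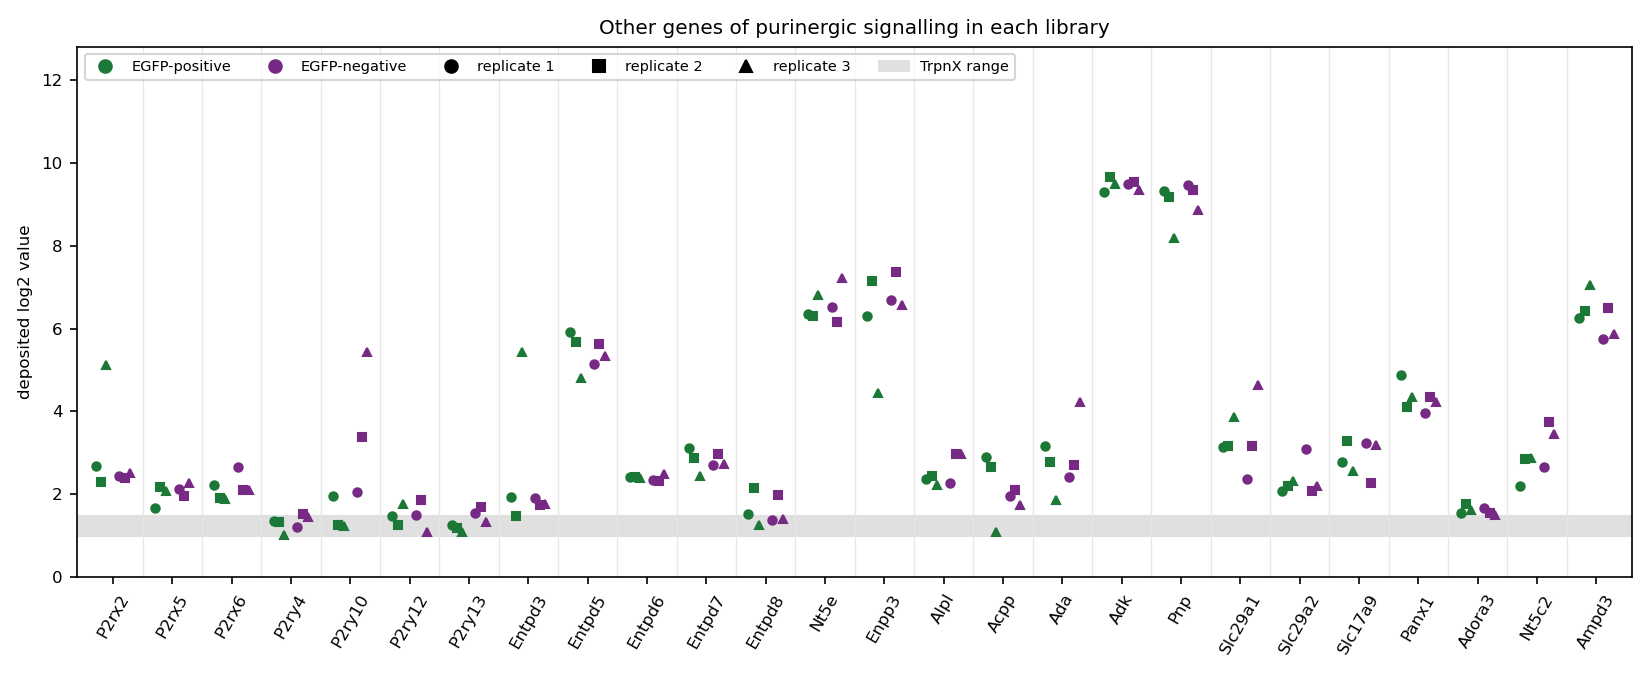
Deposited log2 values of 26 other genes of purinergic signalling in each library, EGFP-positive (green) left of EGFP-negative (purple), with the TrpnX range of 1.00 to 1.48 as a grey band. P2rx2 and Entpd3 are high in EGFP-positive replicate 3, and P2ry10 is high in EGFP-negative replicates 2 and 3.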

How the data were processed

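Gene expression was measured on 6 Affymetrix mouse arrays, 1 colour each, from about 50 ng of total RNA each. The deposited log2 values, 1 per probe set and array, were made by the authors with RMA per the submitters' processing notes, with no version given. Their range, 0.05 to 15.2, is that of a log2 scale. Upper quartiles differed between arrays (4.08 to 4.86, beside medians of 1.91 to 1.99), which is unusual for RMA output.

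Of 45101 probe sets, 34945 had 1 symbol in the platform annotation, and 64 controls, 932 with several symbols and 9160 with none were left out. A gene was represented by its probe set with the highest mean, giving 18193 genes, and all probe sets of the 10 genes are reported. Differences were tested two-sided by limma 3.58.1 under R 4.3.3 (lmFit and eBayes, Benjamini-Hochberg adjustment over all genes, threshold 0.05), which was tested on simulated data. The simulation capped the spread within groups below that of P2rx7, P2ry1, P2ry6, P2ry14 and Entpd2. It thus checks the code and not the power in these data. The number of arrays limits the precision. The labels call the replicates biological and say that pools held 2, 4 or 6 mice, not which.

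Replicates carry the numbers 1 to 3 in both groups. Deviations from the group means correlated at 0.40, 0.31 and 0.45 between same-numbered libraries and at -0.42 to -0.02 between others (genes above the median level). As the deviations within a group cancel out, negative values between others follow from positive ones between same-numbered libraries. That same-numbered libraries deviated together comes from the data, and the labels do not say that a number marks shared mice. Genes named are the 10, other purinergic genes with groups that do not overlap or with the highest or lowest difference, Mapt, and the 2 nearest genes of each of the 10 that spanned at least 2 log2 units. The genes and lists were chosen with earlier results of these data known. Alternatives changed the probe set, normalisation, variance model, array weights, filter, pairing and libraries. Some genes of the lists were not analysed here. Figures used Python 3.11.15 and matplotlib 3.10.9.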

Additional observations from a re-analysis of the deposited data

How the results depend on the processing

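None of the 10 genes passed under any alternative that was run. Over all genes 0 passed under each alternative except without EGFP-positive replicate 1, where 2 did, both lower, so that leaving out 1 library gave 0 to 2. These were Ccr2 (log2 difference -5.72) and Fermt3 (-5.72), named after their values were seen. The number of the 10 genes with groups that do not overlap was 0 with all libraries, 1 (Entpd1, lower) after a second quantile normalisation, 2 (P2rx3 and P2rx7, higher) with arrays centred on ribosomal protein genes, and 0 to 3 without 1 library, where fewer samples remain. Of all genes, 9.11% did not overlap with all libraries, 11.4% after quantile normalisation, 29.2% with ribosomal centring and 15.5% to 21.9% without 1 library. That ribosomal centring moved the median difference of all genes to 0.32, against -0.02. With the replicate number as a replicate block, 0 genes and 0 of the 10 were called, and 1345 genes against 893 had an unadjusted p under 0.05, as had 2 of the 10 (P2rx7 and P2ry14) against 0; it changed no call after adjustment. Marker lists, distances between profiles, Entpd3, P2rx2 and P2ry10 without a library were added after seeing the data. The signs of P2rx7, P2ry1, P2ry6, P2ry14 and Entpd1 held in each alternative run, although Entpd1 ranged from -1.32 to -0.03. Several of these alternatives could not change a sign, as they left the fitted difference as it was. They were the other variance model, the filters by level and by probe set type, the replicate block and the single probe set tests. For P2ry1, P2ry6 and P2ry14, with 1 probe set each, the choice of probe set could not change it either. With array weights the log2 difference turned to -0.03 for P2rx1, -0.19 for P2rx4, -0.06 for P2ry2 and -0.06 for Entpd2, with median centring to -0.03 for P2rx1 and -0.02 for P2rx3, and with the mean of all probe sets to -0.07 for P2rx4; the cause was not tested. Without 1 library in turn the range was -0.06 to 0.08 for P2rx1, -0.01 to 0.03 for P2rx3, -0.12 to 0.30 for P2rx4, -0.01 to 0.38 for P2ry2 and -0.01 to 0.93 for Entpd2. Among genes above the median level, P2rx1, P2rx3, P2ry1 and P2ry2 were not tested. Signal over background limits P2rx1, P2rx3 and P2ry2, for which no difference can be read.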
